A study of Rattus norvegicus with 6 samples.

Results

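Immediate early genes of neuronal activity were followed rat by rat in the dorsal root ganglion (DRG) after chronic constriction injury (CCI) of the sciatic nerve. They numbered 9, namely Egr1, Egr3, Egr4, Arc, Nr4a1, Nr4a2, Nr4a3, Ier2 and Npas4, taken by symbol from a deposited table of 43350 gene rows, and all 9 were found in it. Of these 9 genes, 6 passed a filter on low expression and were tested, and 3 were not.

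Every library came from the lumbar DRG of a male Sprague-Dawley rat 11 days after surgery. In the CCI group (3 rats) the left sciatic nerve was loosely tied with ligatures, and in the sham group (3 rats) it was laid bare in the same manner and left untied. Both groups therefore shared the anaesthesia, the skin incision and the exposure of the nerve, and no animal without surgery was included. The labels give "none" as the treatment of the sham rats, whereas the methods give the sham operation. The labels also mention a pooled sample. By the methods each sample held several lumbar DRG of 1 rat, and whether the labels mean that pool was not settled here. Surgery was allocated at random, rats were then kept on their withdrawal behaviour, and the sequenced rats were drawn at random. Tissue was taken on that same day after the final test, under isoflurane and cold saline perfusion, and the whole ganglion was sequenced. The labels and methods do not give the time between the test and the dissection. The age of the rats is not in the labels, and the methods give it at purchase, weeks before surgery.

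Immediate early genes are transcribed within minutes of a stimulus from factors already present in the cell, and their transcripts are short-lived. In neurons, calcium entry and growth factor receptors act through the MAP kinases and calcium-dependent kinases on serum response factor (SRF) with its ELK partners and on CREB. Most products are transcription factors, which pass the signal on to later genes. Egr1, Egr3 and Egr4 encode zinc finger factors, Nr4a1, Nr4a2 and Nr4a3 encode orphan nuclear receptors that act without a known ligand, and Npas4 encodes a neuron-restricted factor induced by calcium. Arc encodes a synaptic protein that governs the removal of AMPA receptors, and Ier2 encodes a nuclear protein with a less well defined role.

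The promoter sequences below are those of Egr1, Ier2 and Nr4a1, picked after their values over the libraries were seen. Any part of the motifs in those values was not tested. RefSeq (assembly GRCr8) had a promoter entry for 6 of the 9 genes, and each entry runs from 250 bases before the start to 50 bases after it. The part before the start is printed 5′ to 3′ on the strand of the gene, at chr18:26736828-26737077 (+) for Egr1, chr19:40399123-40399372 (+) for Ier2 and chr7:134259888-134260137 (+) for Nr4a1. Capitals mark CArG boxes, the SRF motif, in Egr1, the full cyclic AMP response element (CRE) TGACGTCA in Ier2, and the CRE core motif CGTCA, which is TGACG on the other strand, in Nr4a1.
Egr1: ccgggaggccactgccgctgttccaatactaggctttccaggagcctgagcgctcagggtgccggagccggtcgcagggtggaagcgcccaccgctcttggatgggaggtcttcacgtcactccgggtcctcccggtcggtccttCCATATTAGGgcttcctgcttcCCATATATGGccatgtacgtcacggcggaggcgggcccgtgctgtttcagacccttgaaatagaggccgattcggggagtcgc
Ier2: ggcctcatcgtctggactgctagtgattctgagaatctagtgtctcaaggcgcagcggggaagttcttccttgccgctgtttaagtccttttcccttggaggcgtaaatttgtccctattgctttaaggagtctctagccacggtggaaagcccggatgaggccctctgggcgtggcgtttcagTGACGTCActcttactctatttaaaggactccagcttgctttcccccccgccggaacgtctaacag
Nr4a1: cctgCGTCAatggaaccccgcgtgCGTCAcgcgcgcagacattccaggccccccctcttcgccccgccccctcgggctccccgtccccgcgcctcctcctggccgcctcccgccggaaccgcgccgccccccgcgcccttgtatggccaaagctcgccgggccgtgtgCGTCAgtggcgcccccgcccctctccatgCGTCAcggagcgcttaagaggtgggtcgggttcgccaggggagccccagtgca

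Egr1 held 2 CArG boxes, whose first bases lay at -105 and -83 from the start, and core motifs CGTCA at -135 and -66, which are left in lower case above. The single full CRE of Ier2 began at -66 and contains both a TGACG and a CGTCA. Nr4a1 held 4 core motifs, at -246, -226, -82 and -53, and no full CRE. Among the other entries, Egr4 held core motifs at -178 and -110 and Nr4a2 at -8, and Npas4 held none of the motifs searched. Over all 33469 promoter entries of the same length, searched on both strands, 1.64% held a CArG box, 1.83% a full CRE and 21.2% a core motif, the last including those within a full CRE. The NR4A motif AAAGGTCA (TGACCTTT on the other strand), held by 1.43% of all entries, was in none of the 6. GC content differed between the entries, at 64.7% in Egr1, 52.7% in Ier2 and 72.3% in Nr4a1 against a median of 51.7% over all entries. No entry for Egr3, Arc or Nr4a3 was used.

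**Figure D1:**
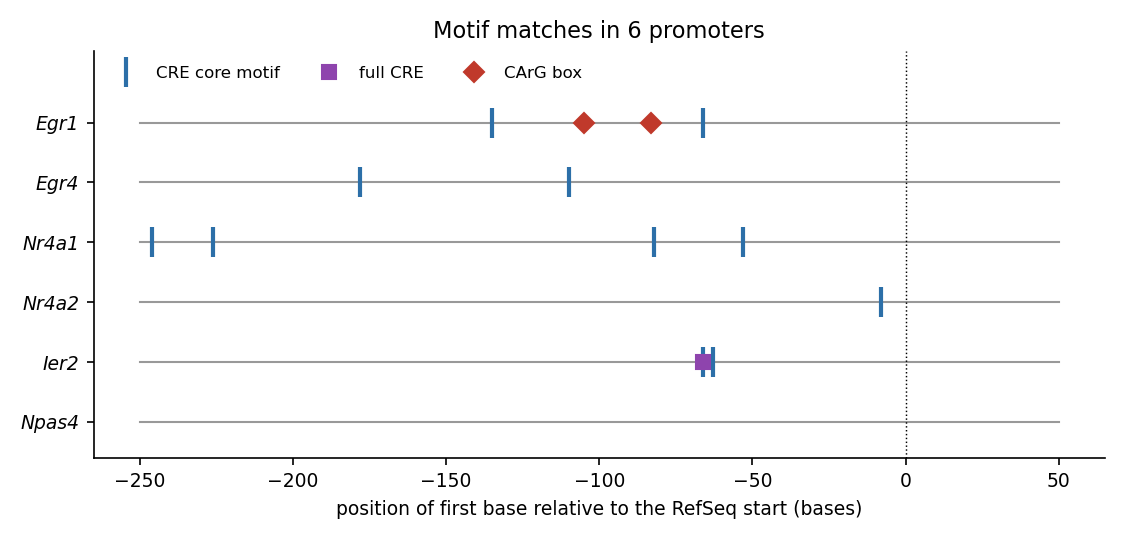
Motif matches in the promoters of 6 genes. The horizontal axis is the position of the first base of each match relative to the RefSeq start, in bases, each grey line is a 300-base promoter, and symbols stand for CRE core motifs, full CREs and CArG boxes. The 2 CArG boxes lie in Egr1 at -105 and -83, and the full CRE lies in Ier2 at -66.

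The libraries held 75423546 to 87615743 counts, and 26663 rows with a mean of at least 0.5 FPKM (fragments divided by transcript length and library size) were tested. Of the rows tested, 686 were called higher in the CCI group (2.57%) and 336 lower (1.26%), which is 3.83% in either direction. A row was called when edgeR's quasi-likelihood test gave an unadjusted p under 0.05 with a log2 change of 0.58 or more either way. At a Benjamini-Hochberg adjusted p under 0.05 there were 25 rows (0.0938%). All 12 genes of a list of nerve injury genes were called higher. The list was chosen with earlier results of these data known, so this count is no independent test. Their summed level was 565 to 923 CPM in the CCI group against 231 to 236 CPM in the sham group. CPM are counts per 1000000 counts of the scaled library. The sum of 16 sensory neuron markers was 15325 to 17032 CPM in CCI rats and 18319 to 19180 CPM in sham rats, with all 16 detected and 0 called. At an unadjusted p under 0.05 in edgeR, which 10.7% of all rows tested reached, 2 of the 16 were higher (Tubb3 and Prph) and 5 lower (Snap25, Nefl, Nefh, Calca and Trpv1), and Nefl passed after adjustment (adjusted p = 0.0457). Without the neurofilaments Nefl, Nefm and Nefh, a choice made after their values were seen, the sums overlapped, at 8318 to 8443 CPM in CCI rats and 7184 to 8563 CPM in sham rats. In whole ganglia, fewer cells of a type and less RNA per cell cannot be told apart. Skeletal muscle markers summed to 403 CPM in sham 1 and to 9.01 to 51.2 CPM in the other 5 libraries, with 6 of 8 called lower. Macrophage markers summed to 137 to 198 CPM in the CCI rats and 98.6 to 127 CPM in the sham rats, with 6 of 11 called higher, and markers of T and B cells to 14.3 to 19.8 and 10.9 to 12.0 CPM. Most of the latter sum was Cd4 (16.7 and 10.4 CPM on average), the only one of the 8 tested, and Cd3d and Cd3g were at 0 to 0.186 CPM in every library. The summed levels of satellite glia markers (3434 to 3658 and 3355 to 3608 CPM), Schwann cell markers (6407 to 8812 and 7917 to 8918 CPM) and erythrocyte markers (70.2 to 140 and 100 to 229 CPM) overlapped between the groups. The part of any of these cell types in the values that follow was not tested.

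None of the 6 tested genes was called in either direction, by edgeR or by DESeq2, and none had an unadjusted p under 0.05 in the edgeR fit. Their log2 fold changes ran from -0.53 in Egr3 to 0.45 in Egr1, with a median of 0.07 beside 0.01 over all rows tested. Of these 6 values, 4 were positive. The CPM values of the groups did not overlap in 2 of the 6, Nr4a2 and Arc, whereas over all rows tested this held for 17.3%. The spread between rats of the same group was least in Nr4a1 and greatest in Egr1 among the 6.

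**Figure D2:**
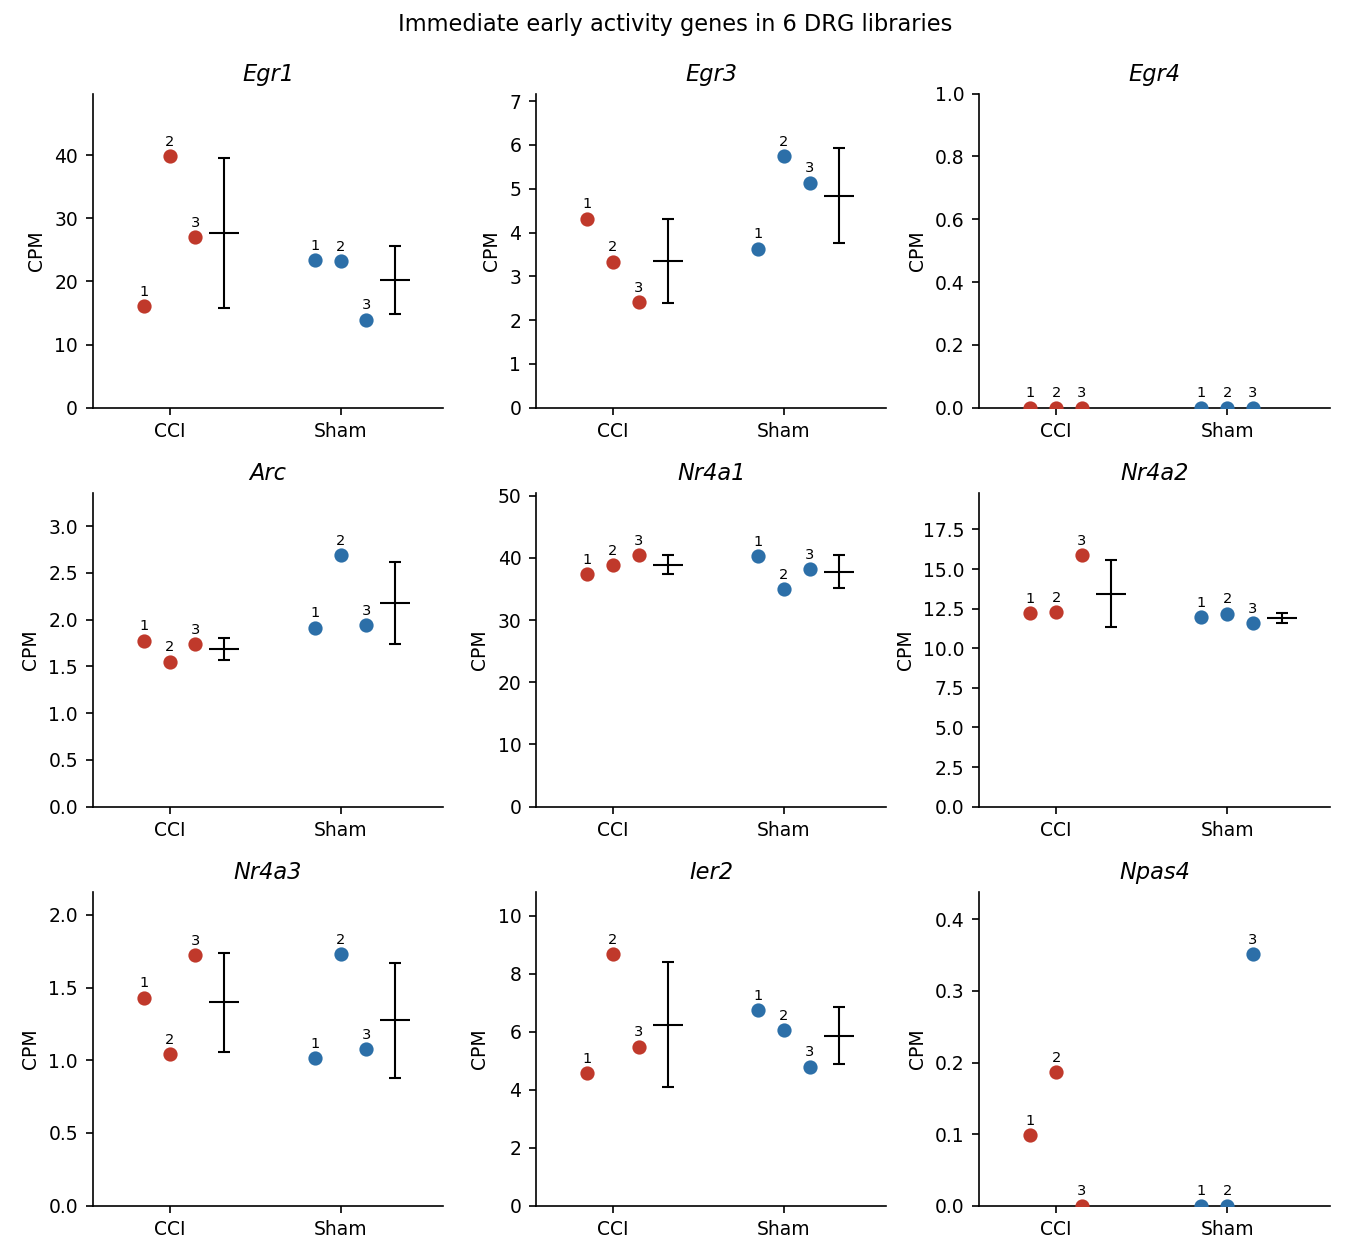
CPM of the 9 genes in each library. The vertical axes are CPM from 0 with a scale of their own for each gene, points are rats with their replicate number, and black bars are the mean and SD of a group (not drawn for Egr4 and Npas4, which had libraries at 0). Egr1 runs from 13.9 to 39.8 CPM with overlapping groups, whereas Nr4a1 stays between 35.0 and 40.4 CPM in all 6 rats.

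Nr4a1, on chromosome 7 from 142905758 to 142920216 in the authors' genome, had the highest level of the 9 genes on the FPKM scale. It was counted 3036, 3129 and 3074 times in CCI 1, 2 and 3 and 3535, 2770 and 3152 times in sham 1, 2 and 3. This gave 37.4, 38.8 and 40.4 CPM in the CCI rats and 40.3, 35.0 and 38.2 CPM in the sham rats, in the same order. The groups overlapped, and the highest library exceeded the lowest by a factor of 1.16. The group means were 38.9 ± 1.50 and 37.8 ± 2.69 CPM (SD, n = 3 each), and the log2 fold change was 0.04 (SE 0.07, adjusted p = 0.905 in edgeR). Its 95% interval ran from -0.14 to 0.22, so a change of 0.58 in either direction lay outside it. The within-group SD of log2 CPM was 0.08, and 16.3% of the rows tested had a smaller one.

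Nr4a2 (chromosome 3, 43111240 to 43119159), which is also needed for dopamine neuron development, was at 12.2, 12.3 and 15.9 CPM in the injured rats and 12.0, 12.2 and 11.6 CPM in the sham group. The groups did not overlap, but CCI 1 with 12.21 CPM lay just above sham 2 with 12.18 CPM, and CCI 3 alone stood apart. The means were 13.5 ± 2.09 and 11.9 ± 0.303 CPM, and the log2 fold change of 0.18 (SE 0.12) did not pass the test, with an adjusted p of 0.702 in edgeR. Nr4a3 (chromosome 5, 63781801 to 63821637) was low, with 116, 84 and 131 counts in the CCI group and 89, 137 and 89 in the sham group. CCI 3 and sham 2 were high and the groups overlapped. It did not reach the filter, and without a filter its log2 fold change was 0.13 with a 95% interval of -0.62 to 0.89 (edgeR, adjusted p = 0.935).

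Egr1 (chromosome 18, 27657628 to 27661429), a widely used marker of stimulated transcription, was counted 1307, 3206 and 2050 times in the CCI group and 2050, 1840 and 1149 times in the sham group. In CPM these were 16.1, 39.8 and 27.0 against 23.4, 23.2 and 13.9. CCI 2 was the highest and sham 3 the lowest, CCI 1 lay below sham 1 and 2, and the highest library was 2.86 times the lowest. The means were 27.6 ± 11.9 CPM after CCI and 20.2 ± 5.41 CPM in the sham group. The log2 fold change of 0.45 had an SE of 0.35 and a 95% interval of -0.39 to 1.3, and its adjusted p in edgeR was 0.732. The within-group SD of log2 CPM was 0.54, larger than in 93.9% of the rows tested, where the median was 0.18. The difference depended on single rats. Without CCI 1 the log2 fold change was 0.73 and Egr1 was called higher (unadjusted p = 0.0432 in edgeR), whereas without CCI 2 it was 0.09. Over all alternatives run, its unadjusted p lay between 0.0432 and 0.773.

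CCI 1 was also the library with the lowest sum of fibroblast markers, 1649 CPM against 2803 and 2558 in CCI 2 and 3 and 2627, 2481 and 2646 in sham 1, 2 and 3. Of 6 fibroblast markers 5 were found and 0 of the 5 were called, none being at 0. The sum of the endothelium markers was 121, 159 and 147 CPM in CCI 1, 2 and 3 and 170, 135 and 139 CPM in sham 1, 2 and 3, again with CCI 1 lowest. Of 8 endothelium markers 7 were found, 6 were tested and 0 were called, and Cldn5 was at 0. Sham 3, lowest in Egr1, was lowest in the single markers Tek (22.1 CPM) and Vwf (32.3 CPM) but not in either sum. In the other endothelium markers tested, Cdh5, Kdr, Flt1 and Emcn, CCI 1 and not sham 3 was lowest. The part of these cells in the Egr1 values was not tested.

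Egr3 (chromosome 15, 51756736 to 51760722), a relative of Egr1 with a role in muscle spindle innervation, was at 4.31, 3.34 and 2.41 CPM in CCI rats and 3.64, 5.74 and 5.14 CPM in the sham group. CCI 2 and 3 lay below every sham rat, and CCI 1 lay above sham 1, so the groups overlapped. The means were 3.35 ± 0.954 and 4.84 ± 1.08 CPM. The log2 fold change of -0.53 (SE 0.27, 95% interval -1.18 to 0.13) had the smallest unadjusted p of the 6 genes, 0.0974 in edgeR, and an adjusted p of 0.577. Egr3 was called lower without CCI 1 (log2 fold change -0.75, unadjusted p = 0.0357 in edgeR) or without sham 1 (-0.70, unadjusted p = 0.0468), the library rich in muscle markers, and its unadjusted p lay between 0.0357 and 0.260 over all alternatives run. Egr4 (chromosome 4, 117293620 to 117296082) had no count in any library, which allows at most 0.0342 to 0.0398 CPM when 3 counts are taken as the limit of detection. Cldn5 likewise had no count in any library while Cdh5, another endothelial gene, averaged 23.7 and 26.6 CPM in the CCI and sham rats, and whether rows at 0 lost reads in assembly or counting was not tested.

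Arc (chromosome 7, 115907097 to 115910541) was at 1.77, 1.55 and 1.74 CPM in the injured rats and 1.91, 2.69 and 1.94 CPM in the sham group. These values rest on 125 to 213 counts per library. All 3 CCI rats lay below all 3 sham rats, with sham 2 apart from the rest. The means were 1.69 ± 0.119 and 2.18 ± 0.440 CPM, and the log2 fold change was -0.37 (SE 0.21, 95% interval -0.87 to 0.13, adjusted p = 0.615 in edgeR).

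Ier2 (chromosome 19, 25773226 to 25775833) was at 4.57, 8.66 and 5.48 CPM after CCI and 6.73, 6.06 and 4.78 CPM in the sham group. A second row with this symbol, of pseudogene type and overlapping the first, had no count. CCI 2 was the highest and CCI 1 the lowest of all 6 libraries, so that both extremes belonged to the CCI group. The means were 6.24 ± 2.15 and 5.86 ± 0.990 CPM with a log2 fold change of 0.09 (SE 0.27, adjusted p = 0.946 in edgeR). This difference was of the opposite sign without CCI 2 (-0.22) or without sham 3 (-0.03). Npas4 (chromosome 1, 220261008 to 220265772) was counted 8, 15 and 0 times in the CCI group and 0, 0 and 29 times in the sham group. Each group had both rats with reads and rats without, and 0 counts allow up to 0.0342 to 0.0398 CPM. No fold change is given for it.

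**Figure D3:**
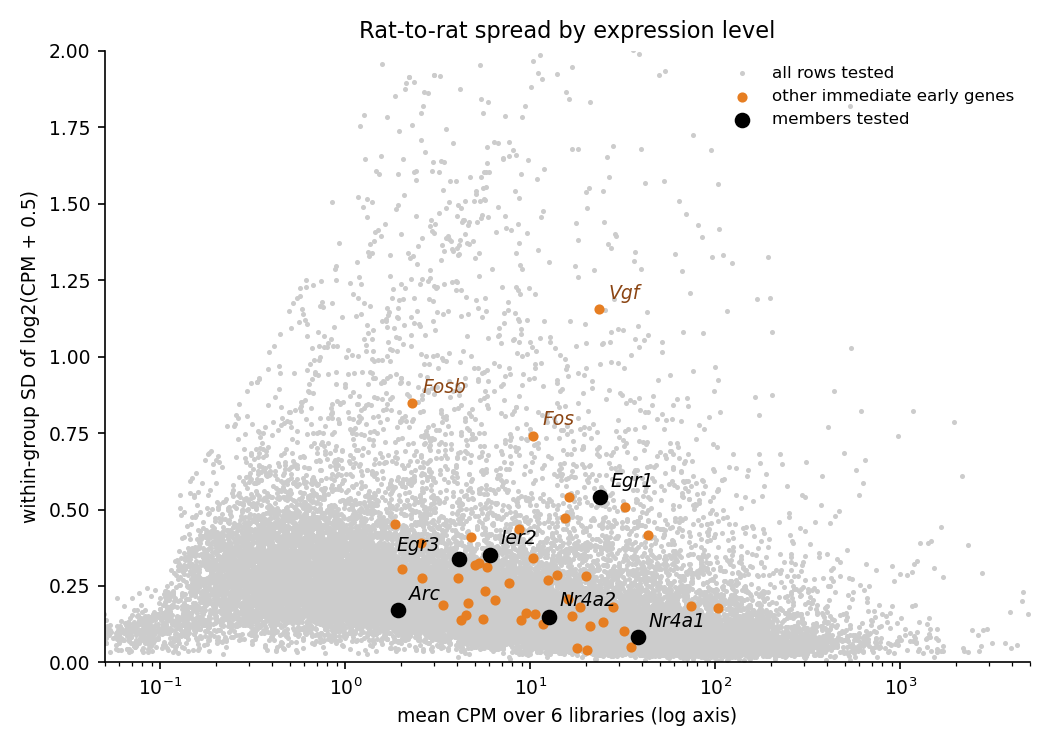
Spread between rats of the same group against expression level. The horizontal axis is the mean CPM on a log scale, the vertical axis is the within-group SD of log2(CPM + 0.5), grey points are rows tested (129 with an SD above 2 and 18 beyond the ends of the horizontal axis are not shown), orange points are other immediate early genes and black points are the 6 tested genes. Egr1 has an SD of 0.54 and Nr4a1 of 0.08.

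On the FPKM scale, which divides by length and so allows genes to be set side by side, Nr4a1 was at 8.86 to 10.4 over the 6 libraries, Egr1 at 3.29 to 9.58, Nr4a2 at 3.08 to 4.32 and Ier2 at 1.60 to 3.04. Below them Egr3 was at 0.809 to 1.91 FPKM, Arc at 0.466 to 0.798, Nr4a3 at 0.210 to 0.360 and Npas4 at 0 to 0.125. The means followed the order in which the genes are given. Neighbours in that order whose ranges overlapped were Nr4a1 and Egr1, Egr1 and Nr4a2, Ier2 and Egr3, and Npas4 and Egr4. The ranges of Nr4a2 and Ier2, of Egr3 and Arc, of Arc and Nr4a3 and of Nr4a3 and Npas4 did not overlap. Egr4 had no count throughout and Npas4 none in 3 of 6 libraries. The authors list 0.0001 FPKM where a library had no count, which was set to 0 here.

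Over the 6 libraries, 15 pairs of tested genes were compared by their log2(CPM + 0.5). By Pearson's r the largest correlation was that of Egr1 and Ier2, with an r of 0.90 (exact permutation p = 0.0181, adjusted p = 0.243) and a Spearman's rho of 0.77 (exact permutation p = 0.103, adjusted p = 0.255). With each group centred on its own mean r was 0.95, and without CCI 2 and sham 3, the 2 libraries farthest from the median of Egr1, it was 0.68. Egr3 and Nr4a1 had an r of -0.83 (exact permutation p = 0.0403, adjusted p = 0.243) and a rho of -0.89 (exact permutation p = 0.0333, adjusted p = 0.25). Egr3 and Arc had an r of 0.71 (exact permutation p = 0.11, adjusted p = 0.329) and a rho of 0.89 (exact permutation p = 0.0333, adjusted p = 0.25), so that by rho these latter pairs ranked above Egr1 and Ier2. Within groups their r was -0.88 and 0.46, and without CCI 3 and sham 2, the libraries farthest from the median of Egr3, it was -0.58 and 0.66. None of the 15 pairs passed after adjustment, two-sided. Egr1 and Nr4a1, both well expressed, had an r of 0.26 (exact permutation p = 0.635) and a rho of 0.60 (exact permutation p = 0.242).

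Other immediate early genes were set beside Egr1, and Fos, Fosb, Junb and Ccn1 were picked for naming after their values had been seen. Fos, the partner of Jun in AP-1, was at 5.95, 23.7 and 8.32 CPM in CCI rats and 7.68, 9.89 and 6.10 CPM in the sham group. CCI 2 was the highest and CCI 1 the lowest, as for Ier2. Junb was at 8.35, 16.4 and 11.9 CPM against 7.78, 9.26 and 8.08 CPM, and Fosb at 1.12, 5.65 and 0.907 CPM against 1.69, 1.84 and 2.49 CPM. CCI 2 was the highest library in both. Ccn1, which encodes a matrix protein induced through SRF, was highest in CCI 2 with 22.0 CPM and lowest in CCI 1 with 10.1 CPM. None of these 4 genes was called, and Fosb and Fos varied more within groups than 97.3% and 96.6% of the rows tested. As a description over 6 libraries, the r with Egr1 was 0.90 for Fos, 0.89 for Ccn1, 0.86 for Junb and 0.47 for Fosb. The libraries differed in depth, and the part of depth or dissection in these values was not tested. Other genes of the list went against Egr1, with an r of -0.92 for Cebpb, -0.64 for Ier3 and -0.42 for Per1. Some markers of endothelium, fibroblasts and satellite glia, also picked after their values were seen, followed it too. Their r was 0.87 for Tek, 0.81 for Lum, 0.78 for Apoe and 0.50 for Flt1. With groups centred it was 0.97 for both Lum and Flt1. Other markers of these lists followed less or went against it, with an r of 0.44 for Cdh5, 0.34 for Kdr, 0.26 for Col1a1 and -0.53 for Kcnj10. The r with Egr1 reached 0.9 in 1 of 45 other immediate early genes, Nptx2, with Fos just under it at 0.899. It did so in 188 of the 26663 rows tested (0.705%), the row of Egr1 itself included.

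**Figure D4:**
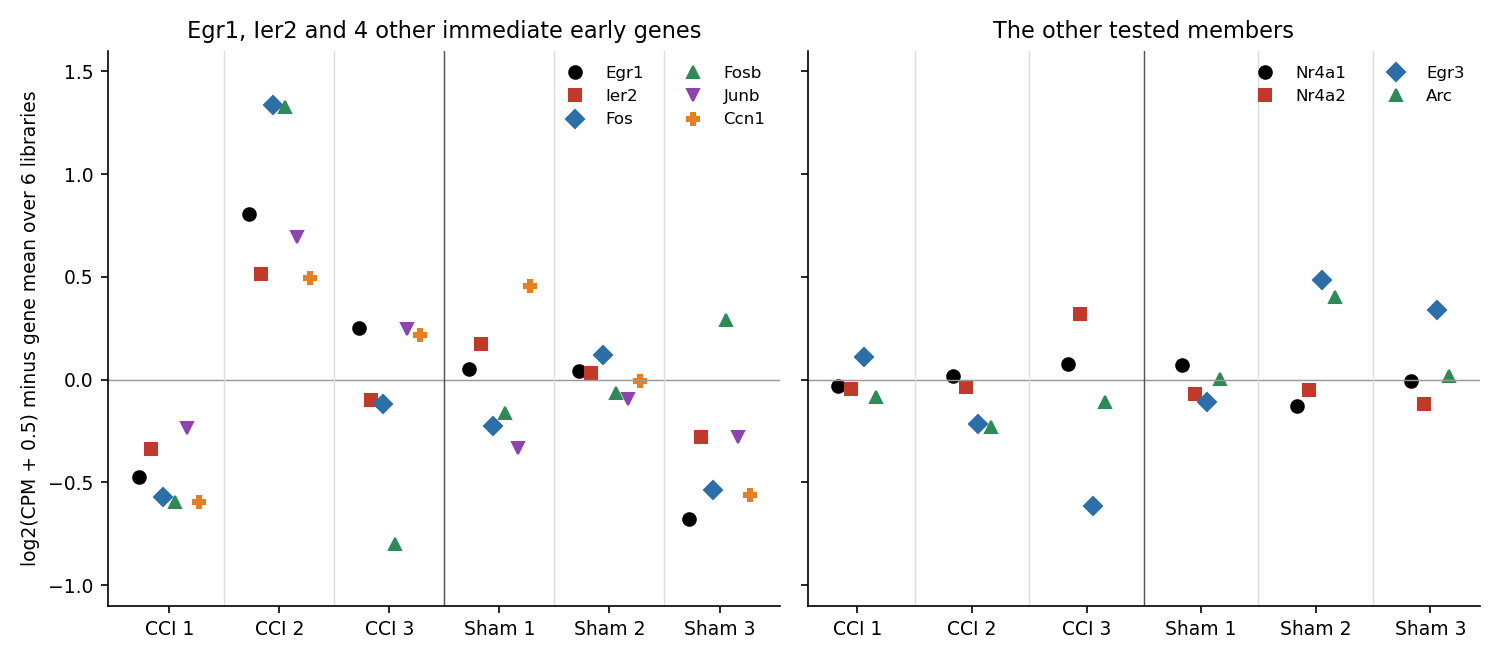
Levels in each library relative to the gene's own mean. The vertical axis is log2(CPM + 0.5) minus its mean over the 6 libraries, the horizontal axis gives the library, and each symbol is a gene (left, Egr1, Ier2, Fos, Fosb, Junb and Ccn1, right, Nr4a1, Nr4a2, Egr3 and Arc). All 6 genes on the left lie above their mean in CCI 2 and below it in CCI 1, whereas Egr3 and Arc are highest in sham 2.

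By a fixed rule, genes were compared with the mean of the 6 tested genes over the libraries. That mean joins genes that went against each other, such as Egr3 and Nr4a1 (r of -0.83). It ran only from -0.14 to 0.14 on the log2 scale, so likeness to it is not likeness to any single gene in it. The genes most like it were LOC100911860, Mrpl41, LOC100911847, Lrrc3b, Kcnd3 and Etfdh. Their r with that mean was 0.98 to 0.99 over 6 libraries. This is a description taken from the upper end of the tested rows with a symbol, the genes that make up the mean left out. With groups centred, 2 of the 6, Mrpl41 and Etfdh, were again among the first 6.

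The wider list of 48 other immediate early genes had 45 tested, since Dusp2 and Ptgs2 did not reach the filter and Mcl1 was not analysed here. This list was chosen with earlier results of these data known, so its shares are no independent test. Of the 45, 10 (22.2%) were called higher and 0 lower, beside 2.57% and 1.26% of all rows tested. An unadjusted p under 0.05 was reached by 13, all higher in the CCI group, beside 10.7% of all rows tested in either direction. The groups did not overlap in 18 of the 45, all with the CCI group higher, beside 8.63% of all rows tested. The median log2 fold change was 0.25. Atf3, a stress-induced partner of Jun and a marker of injured sensory neurons, was the only one to pass after adjustment. It was at 117, 67.4 and 53.8 CPM in the injured rats and 6.32, 8.00 and 7.18 CPM in the sham group, a log2 fold change of 3.47 (SE 0.31, adjusted p = 0.0296 in edgeR). Jun, the AP-1 factor of axon regeneration, was at 167, 133 and 119 CPM against 65.9, 67.3 and 68.1 CPM (log2 fold change 1.06, SE 0.12, adjusted p = 0.0712). Both are on the list of nerve injury genes as well.

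CCI 1, lowest of its group in Egr1, Ier2, Fos and Ccn1, was highest of its group in Atf3 and Jun. The other called genes named by the rule were Gadd45g, a stress-induced growth arrest gene (log2 fold change 1.09), Csrnp1, a nuclear factor (1.0), Crem, a CREB relative whose short form represses CRE genes (0.75), and Bdnf, the neurotrophin (0.73). Bdnf was at 41.3, 33.8 and 30.1 CPM after CCI and 22.0, 22.1 and 19.1 CPM in the sham group. The groups overlapped in Crem but in none of the other called genes named here. Nptx2, a secreted synaptic protein and among the most abundant of the list, was at 66.1 to 86.3 CPM in CCI rats and 61.8 to 76.1 CPM in the sham group and was not called. Egr2, the fourth EGR factor and a regulator of myelination in Schwann cells, lies outside the rule for named genes. It was at 31.2, 18.9 and 19.6 CPM against 17.5, 17.2 and 16.0 CPM, with no overlap and an adjusted p of 0.485 in edgeR.

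**Figure D5:**
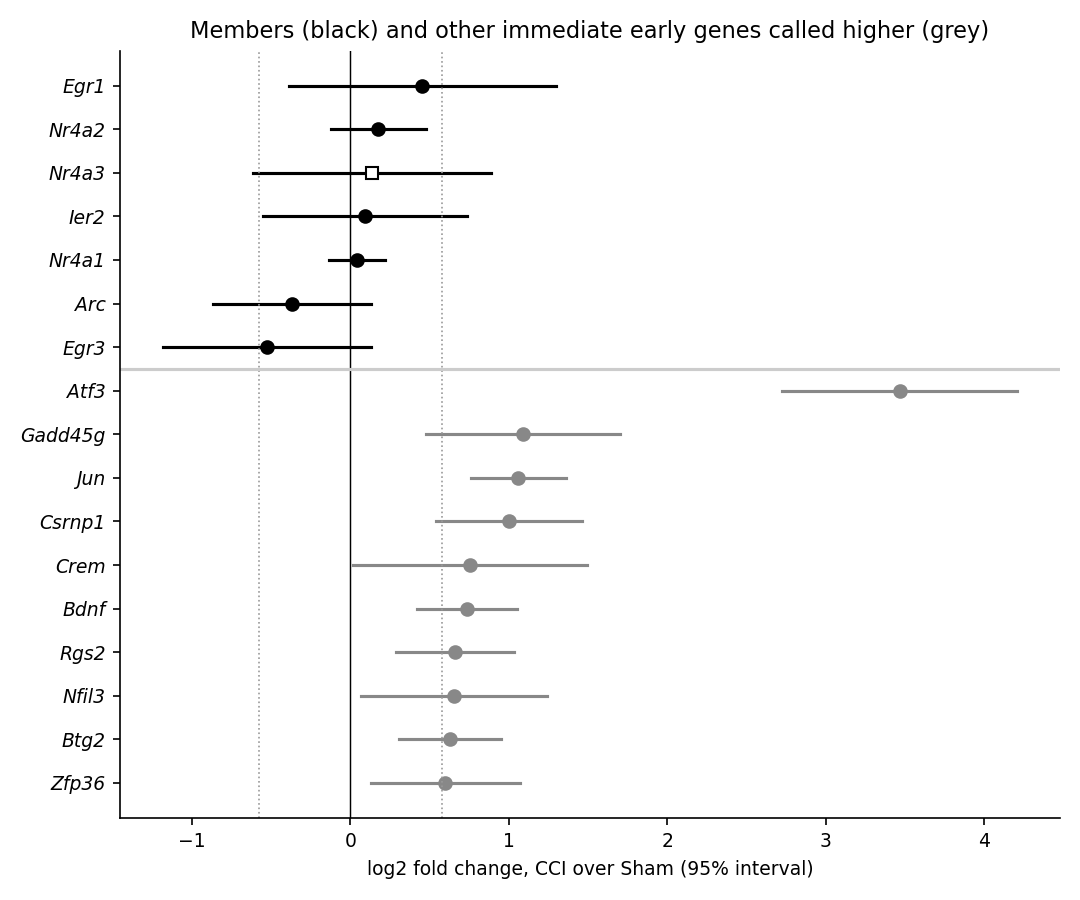
Log2 fold changes between CCI and sham rats. The horizontal axis is the log2 fold change with its 95% interval from edgeR, black marks are the genes followed here (filled when tested, open for Nr4a3, which did not reach the filter), grey marks are the 10 other immediate early genes called higher, and dotted lines are at -0.58 and 0.58. The black intervals all include 0, and the grey values run from 0.60 in Zfp36 to 3.47 in Atf3.

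The list of kinases and transcription factors that act upstream of these genes had 29 of 30 tested, Mkl2 not being analysed here, and the rows of Elk1, Creb1, Crebbp and Rps6ka2 join these genes with another. Of the 29, 1 (3.45%) was called higher and 0 lower, beside 2.57% and 1.26% of all rows tested. An unadjusted p under 0.05 in edgeR was reached by 1, beside 10.7% of all rows tested. The median log2 fold change was 0.04. The called gene was Elk4, an ETS partner of SRF on CArG boxes, at 37.7, 61.2 and 52.0 CPM in the injured rats and 19.8, 34.2 and 22.8 CPM in the sham group. All CCI rats were higher than all sham rats, which held for 8.63% of all rows tested. The log2 fold change of 0.98 (SE 0.25) did not pass after adjustment (adjusted p = 0.261 in edgeR). Among the most abundant of the list, the MAP kinase Mapk3 and the calcineurin subunit Ppp3ca had log2 fold changes of 0.04 and -0.06, with SEs of 0.06 and 0.05, and neither was called.

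Corepressors, partner receptors and feedback inhibitors of these genes were represented by 18 genes, all tested, and some of them, Zfp36 included, are on the wider list too. Zfp36, which encodes a protein that speeds the decay of short-lived mRNAs, was the only one called higher (5.56% of the 18), with a log2 fold change of 0.60. Called lower were 0, and over all rows tested the shares called higher and lower were 2.57% and 1.26%. At an unadjusted p under 0.05 there were 4 higher and 1 lower, Spry4 (log2 fold change -0.38), beside 10.7% of all rows tested. Among the most abundant, Nab1, a corepressor that binds EGR factors, had a log2 fold change of 0.10 and was not called. Arnt2, the dimer partner of Npas4, was at 55.4, 52.2 and 53.6 CPM after CCI and 46.9, 46.9 and 45.9 CPM in the sham group. Its groups did not overlap, and the log2 fold change of 0.21 was under the limit for a call (unadjusted p = 0.0075 in edgeR). The row of Arnt, a related partner, joins this gene with Ctsk and was at -0.002 on the log2 scale.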

How the data were processed

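Ipsilateral lumbar DRG RNA from 3 CCI and 3 sham rats was sequenced in paired ends after ribosomal RNA depletion. The submitters' processing notes name HISAT2 2.0 and StringTie 1.3.0. The authors deposited, without normalization, whole read counts per gene row, and FPKM values that the authors made from them. Strand use in counting and the build behind the authors' genome version are not given in the sources used here. The 9 genes and all lists were chosen with earlier results of these data known.

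Rows whose mean FPKM was 0.5 or more entered edgeR 4.0.16 (R 4.3.3) on counts, with TMM factors of 0.988 to 1.01 and group alone in the design. Standard errors were taken from the coefficient and its F statistic. CPM use TMM-scaled totals of the rows tested. For symbols on several rows, a protein-coding row and then the largest total count was taken. Named genes were all 9, in each list the called genes (at most 6, largest first) and the 3 of highest CPM (1 of these is not reported here), and the 6 most like the members' mean. Rows without a symbol (6849) held 5.37% to 5.72% of the counts and were kept. Tests were tried on simulated counts first. The alternatives were RLE size factors, no filter, a mean FPKM of at least 1, protein-coding rows alone, DESeq2 1.42.0, limma 3.58.1 on log2(FPKM + 0.1) and log2(FPKM + 1), a replicate block and leave-one-out fits. P-values measure the spread between these rats. Intervals from 0 counts cover counting error only. The miRNA libraries were not analysed here.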

Additional observations from a re-analysis of the deposited data

How the results depend on the processing

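No member passed an adjusted p under 0.05 under any of the 14 alternatives. Leaving out 1 library at a time gave 0 to 1 members called higher (Egr1, without CCI 1) and 0 to 1 lower (Egr3, without CCI 1 or without sham 1), and a median log2 fold change of the members of -0.0886 to 0.154, negative without CCI 2. Nr4a1 (-0.0116 to 0.0889) changed sign without sham 2, and Ier2 (-0.220 to 0.272) without CCI 2 or sham 3. The log2 fold change ran over the alternatives from 0.09 to 0.73 in Egr1, -0.75 to -0.30 in Egr3, -0.45 to -0.13 in Arc and 0.04 to 0.24 in Nr4a2. Other immediate early genes called higher numbered 7 to 12 and lower 0 to 1 when a library was left out, and 4 were higher with limma on log2(FPKM + 1). Over all rows, the protein-coding rows alone, which are fewer, gave 353 higher and 115 lower, and the share of them called was not compared. Limma on log2(FPKM + 1) gave 410 and 161, and leaving out a library gave 562 to 767 and 312 to 421. With groups centred, 2 of the 6 genes most like the members' mean were shared.

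The replicate numbers did not pair the rats. Same-numbered libraries had correlated deviations of -0.01, -0.03 and -0.07, and 0 of 6 correlated best with their own number. A replicate block gave 617 rows higher and 318 lower, 0 members called and a median of 0.05 for the members, and 8 other immediate early genes higher. Npas4 and Nr4a3 did not reach the filter on mean FPKM and had at most 137 counts in a library.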
